A study of Mus musculus with 8 samples.

Results

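Cytosolic ribosomal proteins are the protein subunits of the ribosomes that translate messenger RNA in the cytoplasm. Genes were taken by symbol, as all names that begin with Rpl or Rps and a digit or the letter a, without the S6 kinases and without names of processed pseudogenes. This gave 87 of the 24918 genes counted in 8 RNA-seq libraries of mouse embryonic stem (ES) cells: 43 genes of the large subunit, 31 genes of the small subunit, 12 paralogues of such genes, and Rps19bp1, which encodes a partner of RPS19 and no subunit. The symbols Rplp0, Rplp1, Rplp2, Fau and Rack1 also belong to the ribosome but are not matched by this name rule, and their values are given apart. All cells were of the V6.5 line, a C57BL/6 and 129 hybrid, grown in 2i medium on gelatin. The tagged line carries an Oct4-Fkbp fusion, so that OCT4, a transcription factor of pluripotency, can be sent for degradation by a dTAG compound (the label writes dTag9). It was treated for 24 h with DMSO (2 libraries, called DMSO) or with the dTAG compound (2 libraries, called dTAG). The untagged V6.5 line was kept with LIF, a cytokine that holds ES cells in self-renewal (2 libraries, called LIF), or without it for 5 days (2 libraries, called no LIF). No untagged cells received the dTAG compound. The labels give neither the number of clones behind the tagged line nor the origin of the replicates. In the main fit, all 8 libraries were fitted together. The spread that enters each p-value there is drawn from the differences between the 2 replicates of every group, including groups outside the comparison. Since the origin of the replicates is not given, this spread may be technical only.

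A ribosome needs its proteins in equal numbers, and surplus subunits that find no ribosome are degraded, so the genes of this group are usually transcribed at high and matched levels in growing cells. Their messenger RNAs start with a run of pyrimidines, the terminal oligopyrimidine (TOP) tract, through which the mTOR pathway and the protein LARP1 set their translation. Most subunits have many processed pseudogenes, which are copies of the mRNA in the genome. Some also have an expressed copy, such as Rpl10l and Rpl39l, known from the testis, where they serve in cells whose X chromosome is silenced.

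The libraries held 7221451 to 11447468 counted reads, and the members took 2.84% to 3.44% of them. The correlation between replicates across genes was 0.992 to 0.993 on the log2 scale, and in all 4 groups they differed by more than sampling noise. The summed level of 10 ES cell markers was 7127 and 7197 CPM (read counts scaled to library size) in DMSO, 2859 and 2869 in dTAG, 7436 and 7450 with LIF, and 4019 and 4125 without LIF. The total behind CPM is the TMM-adjusted library size. Of 8 feeder fibroblast markers, Postn had 0 reads, Pdgfrb 3 and Col3a1 24. The fibroblast list summed to 558 and 577 CPM in DMSO, 704 and 738 in dTAG, 481 and 496 with LIF, and 142 and 144 without LIF, most of it from Vim and Fn1. In these bulk samples a lower value in fewer cells and less RNA per cell cannot be told apart.

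The sequences of Rpl10, Rpl10l, Rpl39 and Rpl39l are shown first, because the largest changes among the well-counted members fell on these copies while the counts of their parent genes moved little, and a reader needs to see how far the copies can be told apart. Rpl10 and Rpl39 lie on chromosome X, Rpl10l on chromosome 12 and Rpl39l on chromosome 16. The first 120 bases of the Rpl10 pair's coding sequence and the whole coding sequence of the Rpl39 pair follow, 5′ to 3′, from the GENCODE M21 annotation of GRCm38. Capitals mark each base that differs within the pair.
Rpl10: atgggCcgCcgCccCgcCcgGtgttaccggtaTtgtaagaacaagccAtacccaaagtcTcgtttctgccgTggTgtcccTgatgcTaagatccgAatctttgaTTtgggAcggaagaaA
Rpl10l: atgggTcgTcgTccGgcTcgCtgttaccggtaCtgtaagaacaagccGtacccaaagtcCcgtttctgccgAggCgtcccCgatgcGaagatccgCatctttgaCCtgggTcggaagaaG
Rpl39: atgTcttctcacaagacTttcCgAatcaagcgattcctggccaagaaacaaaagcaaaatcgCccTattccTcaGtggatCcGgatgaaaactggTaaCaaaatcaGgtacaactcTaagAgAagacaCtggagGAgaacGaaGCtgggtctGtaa
Rpl39l: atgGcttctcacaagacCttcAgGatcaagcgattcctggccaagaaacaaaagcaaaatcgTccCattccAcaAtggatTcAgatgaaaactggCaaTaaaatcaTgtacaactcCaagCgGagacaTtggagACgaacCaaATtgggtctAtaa
Over their coding sequences of 645 bases, Rpl10 and Rpl10l differed at 98 bases (84.8% identity). Rpl39 and Rpl39l differed at 23 of 156 bases (85.3% identity). The reads were 40 bases long, and none of the 606 words of 40 bases in the Rpl10 coding sequence occurred in that of Rpl10l, nor any of the 117 words of Rpl39 in Rpl39l. A read of either gene's coding sequence without errors therefore matches only 1 gene of the pair. The third such pair, Rpl36a and Rpl36al, differed at 39 of 321 bases (87.9% identity). Compared position by position, this pair shared none of 282 words.

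How well a member was counted went with how many RefSeq transcript accessions it has. Reads were assigned to accessions, and reads ambiguous between features were left out of the counts. How many of those fit several accessions of the same gene is not given, and this cause of low counts was not tested. The 66 members with 1 accession had a median of 20649 reads over the 8 libraries and held 99.6% of all member reads. The 21 members with 2 or more accessions had a median of 83 reads, and 20 of them stayed under 1000. The exception was Rps28, a small-subunit gene with 2 accessions, whose 7602 reads were all on 1 of them. Rps21 with 6 accessions and Rpl22l1, the paralogue of Rpl22, with 4 had 0 reads. Rpl38 had 1 read, Rpl19 3, Rpl37rt 4, Rpl22 16, Rpl35a 17 and Rpl3l, the paralogue of Rpl3 known from muscle, 23. All 8 of these genes were under 1 CPM in each library. These low counts say nothing about expression. Rps19, whose human gene is the one most often mutated in Diamond-Blackfan anaemia, had 250 reads over 9 accessions, 189 of them on a non-coding one; this gene was picked out after its values were seen. Another 2 members, with 1 accession each, also had few or no reads, and were named after their counts were seen: Rps27rt had 0 reads and Rpl26 had 3. Whether these 2 genes were expressed was not tested.

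Pseudogenes gave a further limit. Words of 40 bases were taken from the GENCODE transcripts of each member and looked up in the transcripts of all other gene names, pseudogenes included, on both strands. Among the 57 canonical subunit genes with 1 accession, a median of 40.3% of the words occurred in no other gene, with 2.65% for Rpl35, the lowest. In 20 of these genes less than 25% of the words were unique, in 15 between 25% and 50%, and in 22 at least 50%. The value was 7.76% for Rpl10 and 85.5% for Rpl10l, 77.8% for Rpl39 and 98.96% for Rpl39l, and 23.6% for Rps4x and 80.5% for Rps4l. The libraries listed 1.61 to 1.74 alignments of multiply mapping reads per counted read, and such reads are in no gene's count. Levels compared between members are therefore levels of counted reads. Across the 57 genes the unique share and the CPM per kilobase had a Spearman correlation of 0.27, given as a description, since genes share libraries and are not independent.

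**Figure D1:**
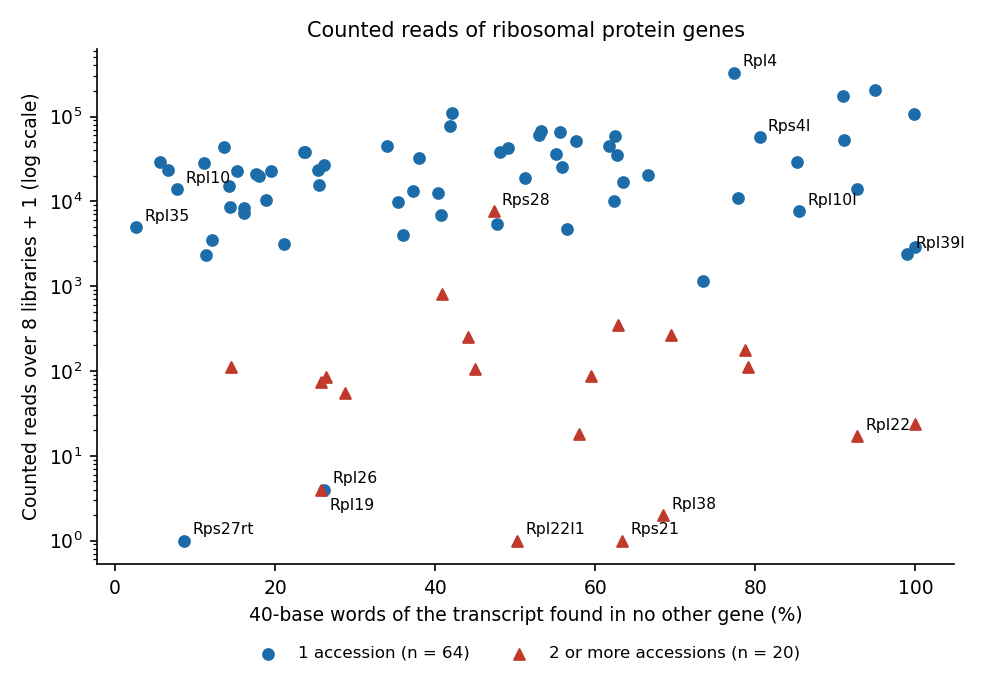
Counted reads over the 8 libraries plus 1 (vertical, log scale) against the percentage of 40-base words of the gene's transcripts found in no other gene (horizontal), 1 point per member with a matched transcript. The 20 members with 2 or more accessions (red triangles) lie under 1000 reads except Rps28, at any share of unique words, while nearly all 64 members with 1 accession (blue circles) lie above 1000.

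Among the well-counted members, the 3 highest of the large subunit were Rpl4, Rpl8 and Rpl13a, and Rps3 was among the highest of the small subunit. Rpl4, whose protein reaches into the nascent peptide tunnel, was read at 4114 and 4077 CPM in DMSO, 3934 and 3915 in dTAG, 5064 and 4679 with LIF and 4572 and 4299 without LIF. Rps3, at the mRNA entry of the small subunit, was read at 2657 and 2679, 2526 and 2540.4, 3223 and 2959 and 2708 and 2540.4 CPM in the same order of groups. In both genes the dTAG libraries were the lowest or near the lowest, and the LIF libraries the highest. Per kilobase of transcript, Rpl4 had a mean of 2816 CPM over the 8 libraries, Rpl8 2732, Rps3 1430.3 and Rpl13a 1386. At the other end of the canonical genes with 1 accession that passed the count filter stood Rpl21 at 8.16 CPM per kilobase. The summed level of all members was 30991 and 31217 CPM in DMSO, 29286 and 29322 in dTAG, 34378 and 32624 with LIF, and 31415 and 29515 without LIF. Both dTAG libraries lay below both DMSO libraries, and both libraries without LIF below both with LIF. The summed level of large-subunit genes divided by that of small-subunit genes was 1.36 and 1.34 in DMSO and 1.30 and 1.31 in dTAG. It was 1.38 and 1.36 with LIF and 1.36 and 1.36 without LIF.

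After 24 h of dTAG, few subunit genes passed the threshold in the fit of all 8 libraries, and those that did were lower. Of the 76 members that passed the count filter, 11 were lower and 0 higher at an adjusted p under 0.05 (edgeR quasi-likelihood test, Benjamini-Hochberg over 10311 genes), where 40.5% of all tested genes were called, 20.3% lower and 20.1% higher. At a change of at least 1.5-fold, 3 members were lower, Rpl39l, Rpl10l and Rpl29, against 10.8% of all genes, and 0 were higher, against 10.1%. At an unadjusted p under 0.05 edgeR had 1 member higher and 16 lower, against 2419 higher and 2482 lower of all 10311 tested genes. DESeq2, with its adjusted p, had 0 higher and 8 lower, given without the share of all genes called in that run. The median log2 fold change of the tested members was -0.094, and their middle 50% spanned 0.12 log2 units, against a median of 0 and a span of 0.62 for all tested genes. Large-subunit genes had a median of -0.10 with 7 of 37 lower, and small-subunit genes -0.035 with 1 of 30 lower. Of the 66 members with 1 accession, 64 passed the filter, and of the 21 others 12. Both dTAG libraries lay below both DMSO libraries in 37 members (48.7%) and above in 5 (6.58%), against 35.4% and 34.8% of all tested genes.

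Rpl5 had the clearest fall among the canonical genes. Its protein forms the 5S ribonucleoprotein with RPL11 and 5S rRNA, which binds MDM2 when it is not built into ribosomes. It was read at 403 and 416 CPM in DMSO and 327 and 337 in dTAG, and at 398 and 413 with LIF and 398 and 399 without it. The dTAG pair stood below all 6 other libraries (log2 fold change -0.30 ± 0.053 (SE), adjusted p = 3.38e-05). Only 5.63% of the words of Rpl5 are unique. Rpl28, a subunit gene found in animals and not in baker's yeast, was read at 261 and 239.9 CPM in DMSO and 216 and 196 in dTAG (-0.28 ± 0.061 (SE), adjusted p = 5.88e-04). Its libraries with LIF had 266 and 258 CPM and those without LIF 281 and 288, the highest pair of the 8. Rpl23a, which lies at the exit of the peptide tunnel, had 51.5 and 46.9 CPM in DMSO and 32.4 and 41.1 in dTAG (-0.41 ± 0.12 (SE), adjusted p = 0.00573); without the first dTAG library its log2 fold change was -0.26 and did not pass. Rps15a, Rpl27, Rpl24 and Rpl32 also fell, by 0.26, 0.24, 0.21 and 0.17 on the log2 scale; the call of Rpl32 was lost with DESeq2 and without the second DMSO library or either dTAG library. Rpl29 had 74 reads in all, and its fall rests on them. The share of unique words was 51.2% for Rpl28 and 12.1% for Rpl23a.

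The members that did not pass ran from -0.44 (Rps15, 86 reads) to 1.15 (Rps27l, 110 reads) on the log2 scale, and both ends are genes with several accessions. Among those with 1 accession, Rpl36 had -0.30 and Rps6, the substrate of S6 kinase, had 0.10. The counts under alternative runs that follow are given without the share of all tested genes called in the same run. The number of members that fell rose to 28 when only the 4 libraries of the tagged line were fitted and to 17 with library totals in place of TMM factors; without the first LIF library it was 20, and without the second 17. No count of members that rose exceeded 2 under any alternative run.

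**Figure D2:**
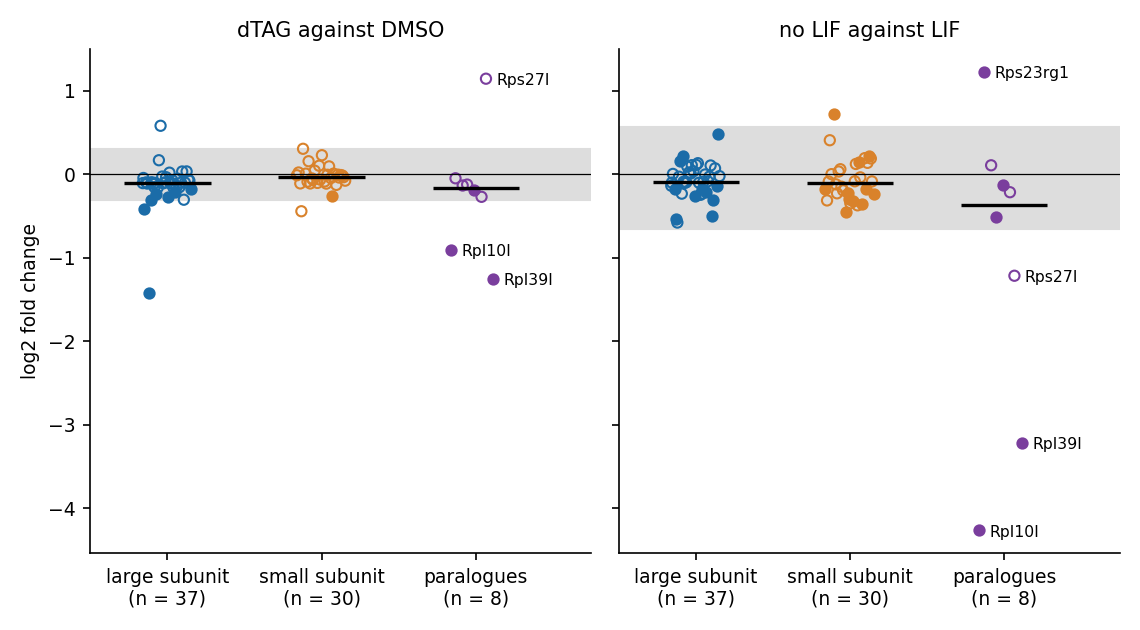
log2 fold change of each tested member (points) in dTAG against DMSO (left) and no LIF against LIF (right), for large-subunit genes, small-subunit genes and paralogues. Filled points passed an adjusted p of 0.05, black bars are medians and the grey band holds the middle 50% of all 10311 tested genes; nearly all subunit genes lie within the band, and Rpl10l and Rpl39l lie far below it.

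Withdrawal of LIF for 5 days moved more members, in both directions. Of the 76 tested members 7 rose and 20 fell (edgeR, adjusted p under 0.05), where 68.4% of all tested genes were called, 34.0% higher and 34.4% lower. With DESeq2's median-of-ratios size factors in edgeR these counts were 11 and 16, given without the share of all genes called in that run. At 1.5-fold or more, 2 members were higher (Rps23rg1 and Rps19) and 2 lower (Rpl10l and Rpl39l), against 22.9% and 24.0% of all genes. The median log2 fold change was -0.091 over the tested members and -0.017 over all tested genes, and the middle 50% spanned 0.29 and 1.22 log2 units. The medians of the large-subunit genes (-0.087) and of the small-subunit genes (-0.10) were close, with 3 higher and 8 lower of 37 and 3 higher and 8 lower of 30. Groups did not overlap in 26 members that were lower (34.2%) and 10 that were higher (13.2%), against 41.2% and 40.3% of all tested genes.

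Rpl13a fell the most among canonical members with a mean of at least 5 CPM. Its protein sits on the large subunit and can leave it under interferon gamma to repress translation. It was read at 1847 and 1640.2 CPM with LIF and 1227 and 1190.1 without (-0.53 ± 0.054 (SE), 1.44-fold lower, adjusted p = 2.74e-09), and at 1470.4 and 1489 in DMSO and 1375 and 1369 in dTAG. The libraries without LIF were the 2 lowest of the 8. Rps20, of the small-subunit head, was named after its values were seen. It had 773 and 817 CPM with LIF and 600.3 and 561 without (-0.45 ± 0.053 (SE), adjusted p = 3.10e-08), and 717 and 738 in DMSO and 689.9 and 666 in dTAG, so that again only the libraries without LIF stood low. Rpl36 was read at 41.8 and 42.7 CPM with LIF and 31.4 and 27.7 without (-0.50 ± 0.11 (SE), adjusted p = 3.21e-04), and only 11.3% of its words are unique. The other subunit genes that fell did so by 1.10-fold (Rpl4) to 1.28-fold (Rps28), among them Rps18, Rpl12, Rps14, Rps3 and Rpl8. In Rps14 and Rps6 the groups overlapped.

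The rises were small. Rpl11, the partner of Rpl5 in the 5S ribonucleoprotein, had 157 and 173 CPM with LIF and 200.2 and 181 without (0.21 ± 0.064 (SE), adjusted p = 0.00457), and 179 and 185 in DMSO and 161 and 166 in dTAG. Leaving out the first LIF library or the first library without LIF lowered its log2 value to 0.14, which did not pass. Rps26, on the mRNA exit side of the small subunit, had 561 and 731 CPM with LIF and 746 and 761 without (0.22 ± 0.073 (SE), adjusted p = 0.00881); without the first LIF library its value was 0.035, and it did not pass there or with DESeq2. Rpl17, at the tunnel exit, had 32.5 and 32.8 CPM with LIF and 57.5 and 31.1 without (0.49 ± 0.17 (SE), adjusted p = 0.0154). Only 1 of its libraries without LIF was high, and without that library the value was -0.067; DESeq2 did not call it. Rps19 had a value of 0.72 on its 250 reads.

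Single libraries moved the counts of this comparison. Without the second library without LIF, 11 members fell in place of 20 and the median was -0.025. Without the first library without LIF the median was -0.15, and without the second LIF library 12 members rose in place of 7. DESeq2 called 12 members lower. The counts in this paragraph are given without the share of all tested genes called in the same run.

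The 2 expressed copies Rpl10l and Rpl39l changed the most of all members with at least 5 CPM, in both comparisons. Rpl10l is an autosomal retrogene of X-linked Rpl10, whose protein joins the large subunit late, near the site of peptide bond formation. It was read at 183 and 175 CPM in DMSO, 96.5 and 94.8 in dTAG, 129 and 118 with LIF and 6.23 and 6.68 without LIF. Each group stood apart from the other 3, with DMSO highest, then LIF, dTAG and no LIF. Rpl10l fell 1.87-fold with dTAG (-0.90 ± 0.068 (SE), adjusted p = 2.21e-11) and 19.2-fold without LIF (-4.26 ± 0.10 (SE), adjusted p = 2.97e-22). Its parent Rpl10 was read at 169 and 184, 177 and 153, 203 and 207 and 199 and 172 CPM in the same order. Neither value of Rpl10 passed (-0.10 ± 0.074 (SE) with dTAG, adjusted p = 0.279, and -0.14 ± 0.072 (SE) without LIF, adjusted p = 0.0975). Rpl10l held 52.0% and 48.8% of the reads counted for the pair in DMSO, 35.3% and 38.3% in dTAG, 38.8% and 36.2% with LIF, and 3.03% and 3.73% without LIF. These are shares of counted reads: per kilobase the pair had 175 (Rpl10l) and 221 (Rpl10) CPM in DMSO, but most words of Rpl10 are shared with other genes.

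Rpl39l is the autosomal copy of X-linked Rpl39, whose small protein lines the peptide tunnel near its exit. Rpl39l was read at 41.4 and 44.5 CPM in DMSO, 17.6 and 18.5 in dTAG, 52.7 and 63.1 with LIF and 6.40 and 5.86 without LIF. Here the LIF libraries were the highest, and again no library of a group overlapped one of another. It fell 2.39-fold with dTAG (-1.26 ± 0.11 (SE), adjusted p = 9.63e-10) and 9.29-fold without LIF (-3.22 ± 0.13 (SE), adjusted p = 1.97e-17). Rpl39 had 132 and 155, 126 and 133, 146 and 169 and 155 and 137 CPM, which overlapped between the groups, and neither value passed (-0.16 and -0.095 on the log2 scale). The share of Rpl39l among the pair's reads was 23.8% and 22.4% in DMSO, 12.3% and 12.3% in dTAG, 26.6% and 27.2% with LIF, and 3.96% and 4.11% without LIF. Per kilobase, Rpl39l had 53.4 CPM in DMSO and Rpl39 234. Over all alternatives run, the log2 fold change without LIF stayed between -4.30 and -4.20 for Rpl10l and between -3.35 and -3.06 for Rpl39l.

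Both copies are best known from male germ cells, so the germ cell markers stand beside them. The 7 germ markers summed to 95.04 and 100.3 CPM in DMSO, 76.3 and 82.3 in dTAG, 19.5 and 20.3 with LIF, and 40.9 and 41.7 without LIF, most of it Piwil2 in the tagged line. With dTAG, 1 of 6 tested germ markers rose (16.7%) and 1 fell (16.7%), against 20.1% and 20.3% of all tested genes. Without LIF 4 rose (66.7%) and 2 fell (33.3%), against 34.0% and 34.4%. Tex101 had 36 reads in all and Dazl 70. Summed ES markers were lower in dTAG and in the libraries without LIF, as given above, but single markers went both ways. With dTAG 1 of the 10 rose (10%) and 8 fell (80%), against 20.1% and 20.3% of all tested genes. Without LIF 3 rose (30%) and 7 fell (70%), against 34.0% and 34.4%. The part of either list in the change of Rpl10l and Rpl39l was not tested.

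**Figure D3:**
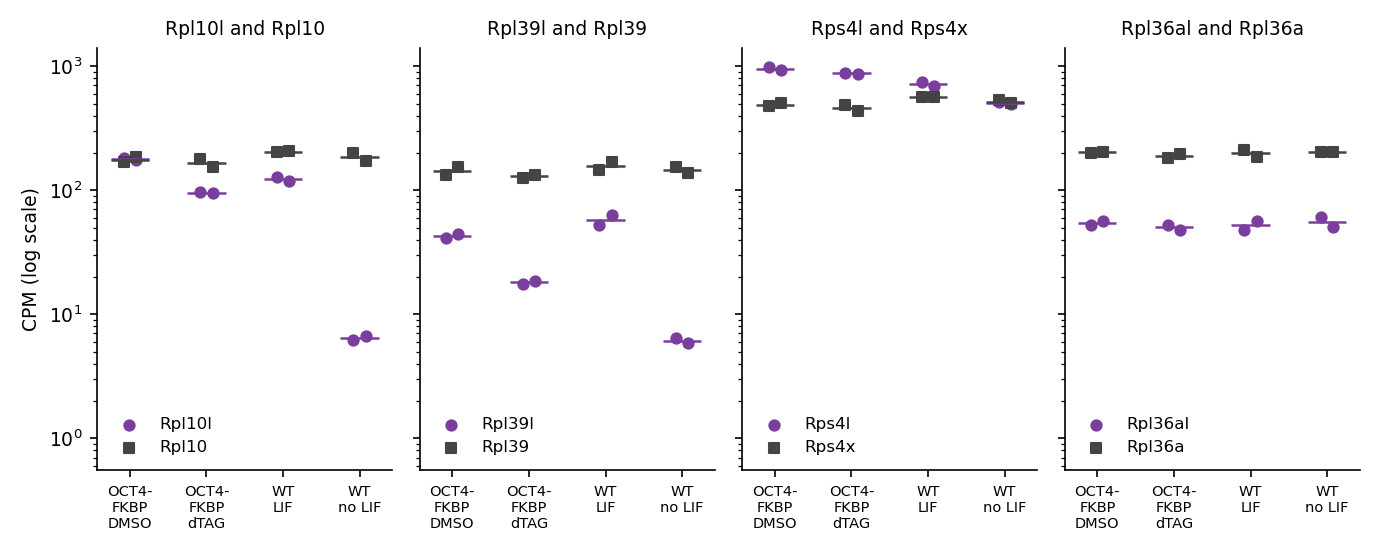
CPM (log scale) of 4 paralogues (purple circles) and their canonical partners (grey squares) in each of the 8 libraries, with bars at group means (n = 2). Rpl10l and Rpl39l step down with dTAG and without LIF while Rpl10 and Rpl39 stay level, Rps4l is lowest without LIF, and Rpl36al and Rpl36a stay level.

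Rps4l, a copy of X-linked Rps4x that RefSeq annotates as a transcribed pseudogene, was the most counted of the paralogues. It was read at 986 and 927 CPM in DMSO, 889 and 869 in dTAG, 745 and 693 with LIF and 511 and 499.9 without LIF. The groups were in that order with no overlap. It fell without LIF (-0.51 ± 0.054 (SE), adjusted p = 4.38e-09) and did not pass with dTAG (-0.12 ± 0.053 (SE), adjusted p = 0.0683). Rps4x, of the small subunit, had 478 and 501, 487 and 435, 563 and 559 and 529 and 505 CPM and passed in neither comparison (-0.086 and -0.12). Rps4l held 67.4% and 64.9% of the pair's reads in DMSO and 49.1% and 49.8% without LIF. Since 23.6% of the words of Rps4x are unique, and 80.5% of those of Rps4l, the pair's shares depend on how the reads aligned.

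The other paralogues moved little or had few reads. Rpl36al, at 52.9 and 56.6 CPM in DMSO and 60.6 and 50.9 without LIF, passed in neither comparison (-0.13 with dTAG and 0.11 without LIF), nor did its partner Rpl36a. Rpl7l1, a relative of Rpl7 that acts in the nucleolus on the assembly of the large subunit, fell by 0.19 with dTAG and by 0.13 without LIF, the calls being lost under 2 and 11 of the alternatives. Rpl7 passed in neither (-0.025 and 0.011). Rpl32l, at 20.8 and 20.1 CPM in DMSO and 15.5 and 15.8 without LIF, passed in neither (-0.27 and -0.21). Rps23rg1, a retrogene of Rps23, had 4.15 and 4.35 CPM with LIF and 11.5 and 7.77 without and rose (1.23 ± 0.22 (SE), adjusted p = 2.71e-05) on 426 reads in all, with 3.79 and 4.40 in DMSO and 3.39 and 4.66 in dTAG. Rps23 had 58.4 and 91.6 and 71.96 and 44.6 CPM in those groups, with overlap. Rps27l, a p53 target, had 110 reads over 4 accessions and replicates of 2.25 and 0.440 CPM in DMSO. Rps19bp1, no subunit, passed in neither (-0.13 and -0.031).

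The response to LIF withdrawal minus that to dTAG, tested as an interaction, differed from 0 in 8 members upward and 10 downward, against 26.4% and 28.6% of all tested genes (55.0% in all). With library totals, or with the median-of-ratios size factors, these counts were 10 and 8. Counts under alternative runs are given here without the share of all tested genes called in the same run. Rpl10l fell further without LIF than with dTAG by 3.36 on the log2 scale and Rpl39l by 1.96. Rpl13a (-0.42 ± 0.077 (SE)), Rps4l (-0.39 ± 0.075 (SE)) and Rps28 (-0.36 ± 0.14 (SE)) were also lower in this difference. The call of Rps28 was lost under 6 of 15 alternatives, and its value was -0.10 without the first LIF library. In the other direction stood Rps23rg1 (1.27 ± 0.35 (SE)), Rpl23a (0.42 ± 0.16 (SE)), Rpl28 (0.39 ± 0.085 (SE)), Rpl11 (0.37 ± 0.091 (SE)) and Rpl5 (0.28 ± 0.074 (SE)). Rpl5 and Rpl28 fell with dTAG and had values of -0.027 and 0.11 without LIF, which did not pass. The difference of Rpl23a did not pass without its first dTAG library (0.26), without the first library lacking LIF (0.19), without the first DMSO library (0.36) or with DESeq2 (0.45). Without the first LIF library 17 members were higher, and without the second 16; without the second library lacking LIF 6 were lower.

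The tagged line in DMSO was set against the untagged line with LIF, a contrast in which the fusion, its clone, the solvent and a culture batch cannot be told apart. Of the tested members 5 were higher and 21 lower in the tagged line, against 18.5% and 22.1% of all tested genes (40.6% in all). With the median-of-ratios size factors 8 were higher and 18 lower. The share of all tested genes called is not set beside the counts under alternative runs here. The median was -0.069 over the members and -0.031 over all tested genes. At 1.5-fold or more, 3 members were lower, against 11.3% of all genes. No call among the higher members reached that size, against 6.84% of all genes. The 3 lower ones were Rpl36, at 29.5 and 24.99 CPM in DMSO against 41.8 and 42.7 (-0.65 ± 0.12 (SE)), Rpl35 and Rps12. In Rpl35 the groups overlapped (34.8 and 68.6 CPM in DMSO, 109 and 52.5 with LIF), and its value went from -0.62 to 0.038 without the first LIF library and to -0.23 without the first DMSO library; the call was lost under 6 alternatives. Rps12 had 95.5 and 62.05 CPM in DMSO and 122 and 113 with LIF, and its value of -0.61 became -0.27, not passing, without the second DMSO library, and DESeq2 did not call it. Rps28 (-0.56 ± 0.098 (SE)) and Rpl39l (-0.42 ± 0.097 (SE)) were the next lowest. Rpl10l (0.54 ± 0.066 (SE)), Rps4l (0.41 ± 0.053 (SE)) and Rpl32 (0.39 ± 0.067 (SE)) were higher in the tagged line. Rpsa, the small-subunit protein also known as a laminin receptor precursor (0.26), was also higher; this call was lost under 4 of 17 alternatives, and the value was 0.024 without the first LIF library. The number of members lower in the tagged line was 11 without the first DMSO library and 11 with DESeq2. The number higher was 12 without the second LIF library, 8 when either dTAG library or the second library lacking LIF was left out, and 3 with DESeq2.

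Replicates of some members differed more than those of other genes. Among 64 members with at least 1000 reads, replicates were over 1.2-fold apart in 5 in DMSO (7.81%), 8 in dTAG (12.5%), 18 with LIF (28.1%) and 12 without LIF (18.8%). For all 5708 genes with as many reads the shares were 6.06%, 6.202%, 10.9% and 7.99%. All 12 without LIF were higher in the first library, and of the 18 with LIF 12 were higher in the first and 6 in the second. Rps14 had 1168 and 901 CPM in the LIF libraries, Rps18 503 and 394 and Rps6 393 and 297, all high in the first. Rpsa (359.7 and 509) and Rps29 (110.3 and 151) were low in it. These 5 genes were picked out after their values were seen.

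**Figure D4:**
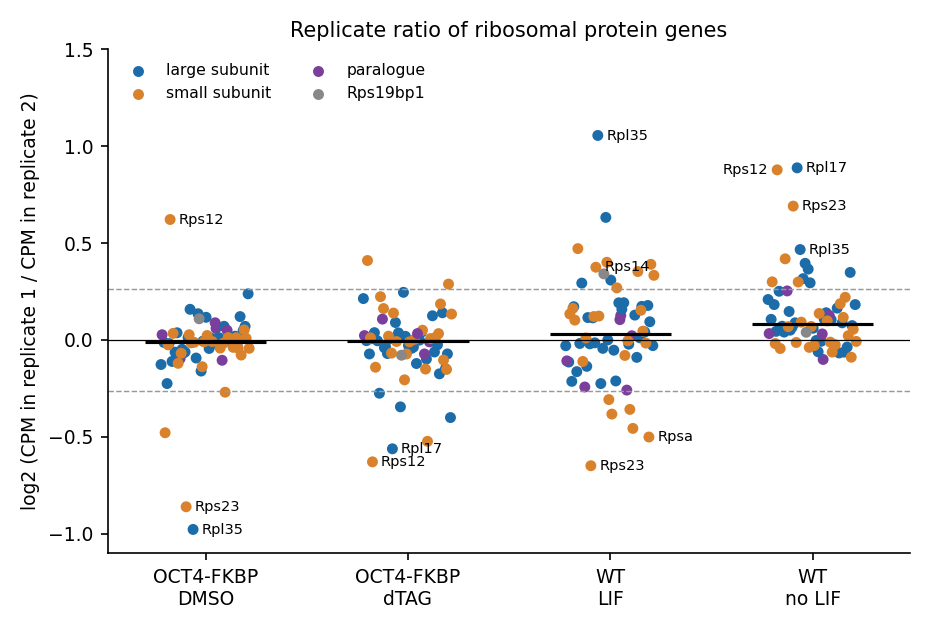
log2 ratio of CPM in the first to the second library of each group for the 64 members with at least 1000 reads, coloured by class, with the group median as a bar and dashed lines at 1.2-fold. The DMSO points are tight apart from 5 genes, the LIF points spread the widest (18 beyond the lines), and all 12 points beyond the lines without LIF lie above.

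Smaller groups of subunits gave mixed counts. Of the 2 subunits of the 5S ribonucleoprotein, Rpl5 fell with dTAG (50%, against 20.3% of all tested genes). Rpl11 rose without LIF (50%, against 34.0%), and both were higher in the difference of the responses (100%, against 26.4%). Of 8 genes around the tunnel exit only 4 were tested. With dTAG 1 fell (Rpl23a, 25%, against 20.3%), and without LIF 1 rose (Rpl17, 25%, against 34.0%), with medians of -0.14 and -0.044. Each of these 2 calls was lost when 1 library was left out, as given above. Of 16 genes mutated in Diamond-Blackfan anaemia, an inherited failure of red cell production, 13 were tested. With dTAG 2 fell (15.4%, against 20.3% of all tested genes; median -0.0099). Without LIF 3 rose (23.1%, against 34.0%) and 2 fell (15.4%, against 34.4%; median -0.085). The 5S and tunnel groups hold 2 and 4 tested genes.

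The subunit genes outside the name rule had values of similar size. Rplp0, of the ribosomal stalk, had 1053 and 1053 CPM with LIF and 1276 and 1113 without (0.18 ± 0.057 (SE), adjusted p = 0.00648), and 0.083, not passing, when the first library lacking LIF was left out. Rplp1, also of the stalk, had 900.2 and 865 and 792 and 749 and fell (-0.20 ± 0.051 (SE), adjusted p = 0.00154). Rack1, a scaffold on the small subunit, fell by 0.14 without LIF (adjusted p = 0.0484). None of these 3 passed with dTAG. Rplp2 had 0 reads and Fau 32.

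The genes that build ribosomes are listed beside the genes of the finished particle, and more of them passed. Of 68 tested biogenesis factors, 2 of which (Rpl7l1 and Rps19bp1) are also members here, 44 fell (64.7%) and 1 rose with dTAG (median -0.20), against 20.3% and 20.1% of all tested genes. Without LIF 40 rose (58.8%) and 8 fell (11.8%; median 0.21), against 34.0% and 34.4%. In the difference of the responses 49 were higher (72.1%) and 2 lower (median 0.43), against 26.4% and 28.6%. The 2 control groups also differed for this list. In DMSO against LIF, 31 were higher (45.6%) and 5 lower (7.35%, median 0.14), against 18.5% and 22.1% of all tested genes. Rsl24d1, an early partner of the large subunit, was read at 95.2 and 104 CPM in DMSO, 69.4 and 67.1 in dTAG, 101 and 98.6 with LIF and 130.3 and 114 without LIF. It fell with dTAG (-0.55) and rose without LIF (0.30). Gar1, of the particles that pseudouridylate rRNA, had 115 and 118, 98.7 and 94.5, 95.5 and 108 and 170.0 and 182 CPM in the same order (-0.27 with dTAG and 0.79 without LIF). Npm1, the nucleolar chaperone nucleophosmin, rose without LIF (0.73) and did not pass with dTAG (0.058). Ltv1, which leaves the small subunit late in its assembly, went the other way, at 323 and 316 CPM in DMSO and 521 and 522 in dTAG (0.71, adjusted p = 1.16e-11), and it fell without LIF (-0.22).

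**Figure D5:**
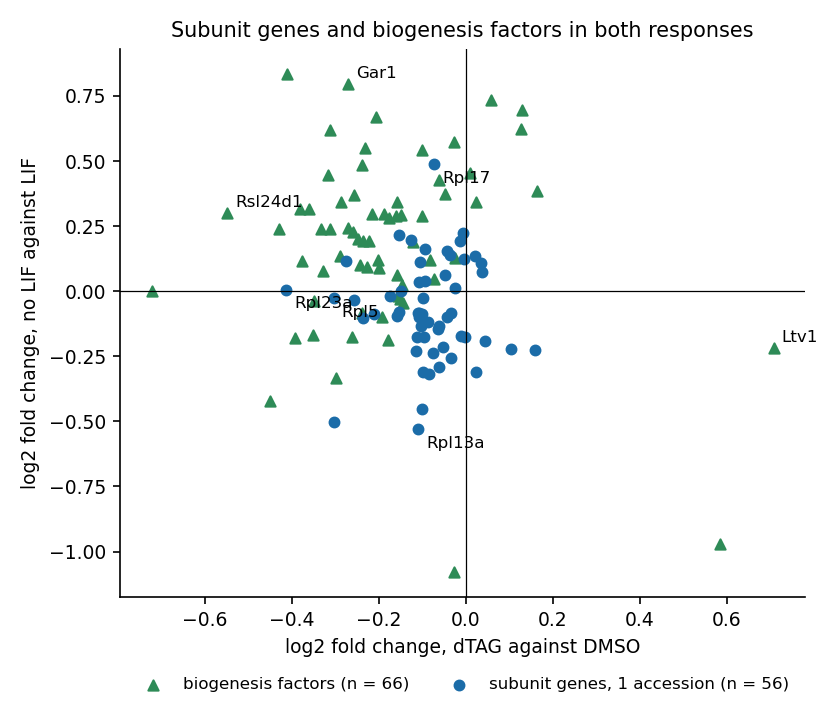
log2 fold change with dTAG (horizontal) and without LIF (vertical) of 56 tested canonical subunit genes with 1 accession (blue circles) and of 66 tested biogenesis factors that are not members (green triangles). The 2 comparisons use separate control libraries; the biogenesis factors lie mostly in the upper left, and the subunit genes lie around the origin.

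Of 10 tested genes of RNA polymerase I and its factors, 4 fell with dTAG (40%, against 20.3% of all tested genes), and without LIF 4 rose (40%, against 34.0%) and 3 fell (30%, against 34.4%). The polymerase subunits Twistnb (-0.64) and Polr1b (-0.48) and the initiation factor Rrn3 (-0.28) fell with dTAG. Rrn3 rose without LIF (0.30) and Polr1c, a subunit shared with polymerase III, fell (-0.30). Of 25 translation factors and other genes with TOP mRNAs, 3 rose and 3 fell with dTAG (12% each, against 20.1% and 20.3%), and 8 rose (32%) and 9 fell (36%) without LIF. Vim, an intermediate filament gene also in the fibroblast list, rose with dTAG (0.48) and fell without LIF (-1.67). The initiation factor gene Eif4a2 fell in both (-0.55 and -1.30), with dTAG by 0.18 and no longer past the threshold when the second DMSO library was left out, and not past it with DESeq2 either. Of 66 tested mitochondrial ribosomal protein genes, 15 fell with dTAG (22.7%, against 20.3% of all tested genes; median -0.077). Without LIF 18 rose (27.3%, against 34.0%) and 17 fell (25.8%, against 34.4%; median -0.015).

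Regulators of these genes were mixed. Of 14 tested, 2 rose (14.3%) and 5 fell (35.7%) with dTAG, against 20.1% and 20.3% of all tested genes. Without LIF 4 rose (28.6%) and 5 fell (35.7%), against 34.0% and 34.4%. Mycn, a MYC family factor that drives ribosome production, was read at 189.9 and 177 CPM in DMSO, 62.6 and 61.3 in dTAG, 183 and 182 with LIF and 183 and 169 without LIF. Only the dTAG libraries were low (-1.56 ± 0.069 (SE), adjusted p = 3.96e-16), and the value without LIF was -0.049. Myc had 0 reads, which the counting over accessions leaves uninterpretable. Eif4ebp1, the translation repressor under mTOR, fell in both (-0.86 with dTAG and -0.76 without LIF). Ddit4, an inhibitor of mTOR, had 302 and 294 CPM with LIF and 118 and 117 without (-1.34).

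The start sites of the genes were searched for the pyrimidine tract of TOP mRNAs, because the tract is the sequence feature for which the group is known. A tract was a run of at least 5 letters C or T on the gene's strand that begins with C within 2 bases of the RefSeq start. Of the 74 canonical members 55 had an entry in the RefSeq promoter table (GRCm38.p6), and 19 of these (34.5%) had a tract, against 10.6% of 27025 genes with an entry. The share was 37.5% of 32 large-subunit genes and 30.4% of 23 small-subunit genes, 10.2% of 59 biogenesis factors, 11.6% of 69 mitochondrial ribosomal protein genes and 44.4% of 18 of the genes listed for TOP mRNAs. Windows of 25 bases, from 10 before the start, are shown for a canonical gene that fell without LIF, one that fell with dTAG, and the 2 copies that fell in both, with the tract in capitals.
Rpl13a (chr7:45128731-45128755, minus strand): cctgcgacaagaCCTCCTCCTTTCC
Rpl28 (chr7:4792955-4792979, plus strand): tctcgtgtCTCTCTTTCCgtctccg
Rpl10l (chr12:66284387-66284411, minus strand): cctccattttgcggctggcggtggg
Rpl39l (chr16:10170218-10170242, plus strand): aggcctttccggatttccggtggtc
Rpl10l and Rpl39l have no such run at the listed start, and neither do Rpl10, Rpl39, Rpl4 and Rps3. A listed start a few bases from the true one hides a tract, so a window without a match says only that these letters are not at this place.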

How the data were processed

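Each library has 1 table of raw counts deposited by the authors, with 1 row per RefSeq transcript. The submitters' processing notes name HISAT2, HTSeq and mm9 without versions, and no strand setting. Reads ambiguous between features were 42.2% to 43.0% of counted plus ambiguous reads and, like reads without a feature (10.4% to 14.9%), stayed out of library sizes. Of 41565 accessions, 41325 were named through a RefSeq table (GRCm38) and 126 through GENCODE; counts were summed per symbol.

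Genes were tested in edgeR 4.0.16 (R 4.3.3) with TMM, filterByExpr, glmQLFit and glmQLFTest, in 1 fit of 4 groups over 8 libraries, with Benjamini-Hochberg adjustment over 10311 genes and calls at 0.05. Standard errors are the log2 fold change over the square root of F. The fit was run on simulated data in which only a small share of genes changed, unlike these data, so its accuracy here was not tested. No set was tested, since members and lists were chosen with earlier results of these data known.

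Named genes were the paralogues and their partners; in each contrast the 5 highest and 5 lowest called members with a mean of at least 5 CPM; the 3 most counted members per subunit; members with several accessions under 1 CPM throughout; and, in the lists of biogenesis, polymerase I, translation and regulator genes, the 2 smallest adjusted p per response, with the ribosomal genes outside the name rule. Alternatives were other scalings, DESeq2 1.42.0, other filters, genes with 1 accession, the comparison's own libraries, a replicate term, and leaving out each library. Values of some single genes are not reported here.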

Additional observations from a re-analysis of the deposited data

Results flagged for a closer look

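In 10 members the log2 change on LIF withdrawal minus that on dTAG differed from 0 in the edgeR interaction test, at a mean of at least 5 CPM. The difference was -3.36 for Rpl10l and -1.96 for Rpl39l, the X-derived copies, which fell in both comparisons and further without LIF. It was -0.42 for Rpl13a, -0.39 for Rps4l and -0.36 for Rps28, which fell without LIF and did not pass with dTAG. It was 0.28 for Rpl5, 0.39 for Rpl28 and 0.42 for Rpl23a, which fell with dTAG and did not pass without LIF. It was 0.37 for Rpl11 and 1.27 for Rps23rg1, which rose without LIF and did not pass with dTAG. The adjusted p ranged from 2.10e-17 (Rpl10l) to 0.0309 (Rps28).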

How the results depend on the processing

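With dTAG, the 11 members that fell became 17 with library totals and 28 with only the comparison's own 4 libraries, and leaving out 1 library gave 8 to 20. The 0 members that rose became 1 without a count filter and 0 to 2 with a library left out. Without LIF, the 7 that rose became 11 with median-of-ratios size factors and 5 to 12 with a library left out, and the 20 that fell became 12 with DESeq2 and 11 to 28. The median of -0.091 became -0.028 over the 22 canonical members with 1 accession and mostly unique words, an alternative chosen after seeing the data, and -0.15 to -0.025 with a library left out. In the difference of responses, 8 higher became 6 to 17, and 10 lower became 5 with DESeq2, 17 without a filter and 6 to 15. Its median of 0.018 ran from -0.061 to 0.085. In DMSO against LIF, 5 higher became 8 with median-of-ratios size factors, 3 with DESeq2, 10 without a filter, 8 with 1-accession genes and 6 to 12 with a library left out. The 21 lower became 11 with DESeq2 and 11 to 22, and the median of -0.069 ran from -0.075 to -0.0016 with a library left out and from -0.099 over all alternatives. Rpl17 (no LIF against LIF) ran from -0.067 to 0.83 and Rpl35 (DMSO against LIF) from -1.21 to 0.038. The cause was not tested. Other values of these counts stayed within 1.5 times. The share of all tested genes called in each alternative run is not set beside these counts.

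Replicate numbers did not pair the libraries (correlations of -0.0098 to 0.046 between groups). With the replicate block, 0 members rose and 10 fell with dTAG, 8 and 21 without LIF, 9 and 12 in the difference, and 6 and 21 in DMSO against LIF. For single genes that were called, 940 of 1020 values under alternatives kept the call, 78 lost it and 2 changed sign. With 2 libraries per group, all differences, small or large, rest on few residual degrees of freedom (4 in the main fit). Among members with under 1000 reads, 20 have 2 or more accessions and 3 have 1.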
